A study of Sus scrofa with 18 samples.

Results

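Cytokine messenger RNAs (mRNAs) are short-lived because dedicated RNA-binding proteins mark them for destruction, and 7 genes of such proteins are described here in alveolar macrophages of pigs. They are ZFP36, ZFP36L1 and ZFP36L2 of the ZFP36 family, ZC3H12A and ZC3H12C of the regnase family, and RC3H1 and RC3H2 of the roquin family. The members were taken by gene name from the deposited table of read counts, in which each name had 1 row, so that the family set makes up 7 of 30686 rows. All 7 passed the filter on low counts, which kept 13592 genes. The cells, phagocytes that live in the airspaces of the lung, came from lungs of Danish Landrace-Yorkshire pigs described as healthy. They were treated in culture for 24 hours before total RNA was sequenced. Each of 6 treatments had 3 libraries, labelled with pigs 1 to 3. The treatments were control (untreated), B. subtilis (Bacillus subtilis), E. faecium (Enterococcus faecium), poly I:C, and poly I:C joined with either bacterium. The agent poly I:C, a double-stranded RNA made by synthesis, mimics viral RNA, and both bacteria are gram-positive and used as probiotics. No source used here states age of the pigs, strain, dose or viability of the bacteria.

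As background, ZFP36 proteins bind AU-rich stretches in the untranslated end of mRNAs such as those of TNF and CSF2, and bring in the CCR4-NOT complex, which shortens the poly(A) tail. Regnases are endonucleases that cut mRNAs such as those of IL6 and IL12B at stem-loops, and roquins bind similar stem-loops and also bring in deadenylases. In mouse macrophages, loss of ZFP36 or of ZC3H12A leads to overproduction of inflammatory cytokines. Genes of several of these proteins are themselves induced by the stimuli that induce cytokines, which makes them part of a negative feedback.

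The families did not move as one. ZC3H12A, the gene of the endonuclease regnase-1, rose 7.22-fold with poly I:C and 8.99-fold with B. subtilis against control, and its relative ZC3H12C rose with both as well. ZFP36L2 fell to a level 5.22-fold lower with B. subtilis. ZFP36, the founding member of its family, passed in none of the 10 comparisons made with edgeR. The roquin gene RC3H2 rose in each of the 3 treatments that held poly I:C, whereas its paralogue RC3H1 passed in no comparison. With E. faecium alone no member passed with edgeR, while DESeq2 called ZC3H12A and ZC3H12C, and library 2 of that treatment lay within the control range for 5 of the 7 genes.

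Levels are given in CPM, read counts scaled to a common library total after edgeR's TMM correction for RNA composition. The libraries held 16346750 to 27274279 counts. The TMM factors differed by treatment, from 1.27 to 1.33 in control to 0.664 to 0.863 with B. subtilis and poly I:C. The members were covered by 63 to 9632 counts in a library, and at the lowest of these values the counting error alone was 12.6% (SD). Gene levels are not compared between members here, since transcript lengths were not used. In bulk RNA, fewer cells with a transcript and less of the transcript per cell cannot be told apart. All 10 alveolar macrophage markers were detected in every library. Their summed level was 2016 to 2888 CPM in control, although FABP4, a lipid carrier, was at only 0.827 to 5.86 CPM. Of the markers of other cells, MPO (neutrophils), CPA3 (mast cells) and CDH5 (endothelium) were at 0 counts in all 18 libraries. Others were high, with S100A12 at 547 to 3266 CPM, CD14 at 154 to 2140, NKG7 at 195 to 476, EPCAM at 27.5 to 389 and CSF3R at 21.1 to 110 CPM. BATF3, of dendritic cells, ran from 3.33 to 170 CPM. The lists of NKG7 and EPCAM were otherwise low. Besides NKG7, no T, NK or B cell marker exceeded 38.5 CPM (CD2), and CD3E lay at 4.12 to 10.4 CPM. Besides EPCAM, no epithelial marker exceeded 5.63 CPM (SCGB1A1).

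Libraries did not group by the pig numbers of their labels. The 18 libraries were split into 3 sets by their deviations from the treatment means. The search required 1 library of every treatment in each set, so that balance is not a finding. These sets explained 32.3% of the variance of log2 CPM against 9.60% for the pig numbers. The sets were found from the data, without the members, as the assignment that explained most of 7776, and the second best explained 26.5%. The share is thus in part set by that search. Where the sets enter a fit as a block, they take out spread of the same libraries. The adjusted p-values of such fits can therefore be too small. Set A holds the libraries numbered 1 of control, poly I:C and B. subtilis with poly I:C and those numbered 3 of the other treatments. Set B holds number 2 of control, poly I:C, E. faecium and B. subtilis with poly I:C, and number 1 of B. subtilis and of E. faecium with poly I:C. Set C holds number 3 of control, poly I:C and B. subtilis with poly I:C, number 2 of B. subtilis and of E. faecium with poly I:C, and number 1 of E. faecium. As an example, CES1, a carboxylesterase gene, did not exceed 3.13 CPM in sets A and B and had at least 60.8 CPM in set C. What the sets stand for is not given by the labels. Libraries of 1 treatment lay at a median root mean square distance of 0.885 log2 units (0.691 to 1.36 over 18 pairs). E. faecium library 2 differed from control library 2 by a root mean square of 0.374 log2 units over all genes tested, the lowest distance of all pairs, and from the other E. faecium libraries by 0.875 and 0.894, which is near that median. Other pairs of 1 set were about as close, such as poly I:C library 3 and library 2 of E. faecium with poly I:C at 0.389. B. subtilis with poly I:C library 2 lay at 0.430 and 0.454 from library 1 of E. faecium with poly I:C and library 2 of poly I:C, and at 1.17 and 1.36 from its own treatment. Member values that change their call or move by over 1.5 times without either library are given with and without it or stand among the sign changes listed with the alternatives.

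**Figure D1:**
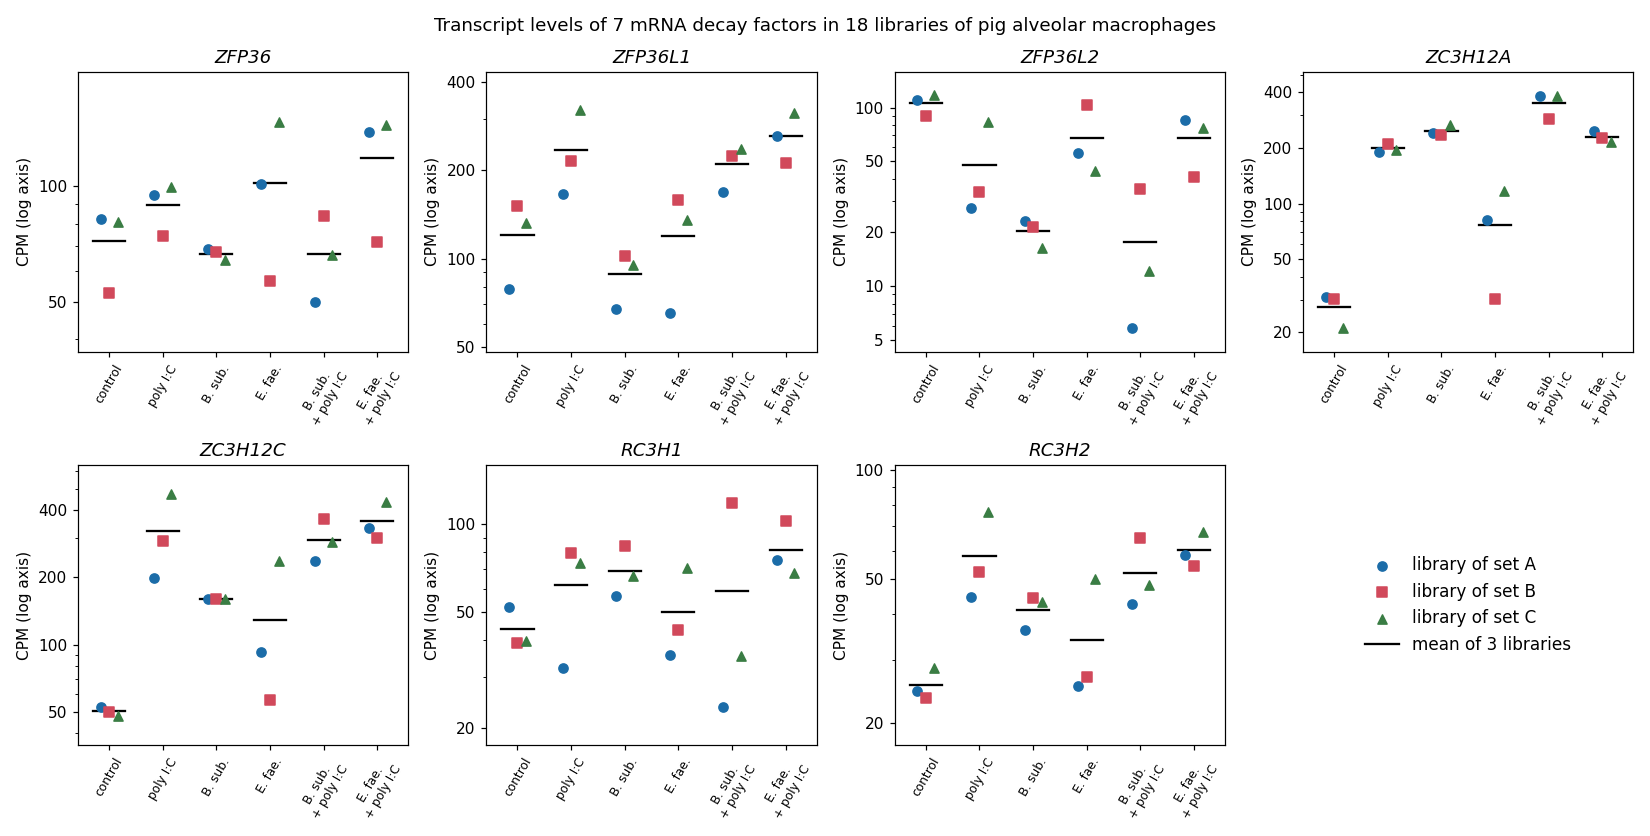
Level of each of the 7 decay factor genes in every library, in CPM on a log axis (vertical), for the 6 treatments (horizontal; B. sub. is B. subtilis, E. fae. is E. faecium). Symbols mark the library sets A, B and C and black lines the mean of 3 libraries; all ZC3H12A points of the 4 treatments with poly I:C or B. subtilis lie above every control point, and the set B library of E. faecium lies at 30.2 CPM among the controls.

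Among the regnases, treatment took 92.6% of the variance of log2 CPM for ZC3H12A and 84.2% for ZC3H12C. ZC3H12A (gene ID 110261148, chromosome 6, 93541334 to 93551200 of Sscrofa11.1, protein-coding) encodes an endonuclease that degrades mRNAs of IL6 and IL12B in mouse macrophages. It lay at 31.0, 30.3 and 21.2 CPM in control libraries 1 to 3. With poly I:C it lay at 190, 211 and 195 CPM, and with B. subtilis at 234, 265 and 242 CPM. Neither treatment overlapped control or the other. Against control the rise was 2.85 log2 units with poly I:C (SE 0.35, adjusted p = 6.01e-05, edgeR's quasi-likelihood test with Benjamini-Hochberg adjustment over all genes, as throughout) and 3.17 with B. subtilis (SE 0.35, adjusted p = 0.000435). With B. subtilis and poly I:C together the libraries lay at 382.8, 289 and 382.5 CPM, the highest of the 6 treatments, and the rise was 3.68 log2 units (SE 0.36, adjusted p = 1.08e-05). With E. faecium and poly I:C they lay at 226, 215 and 248 CPM, a rise of 3.06 (SE 0.35, adjusted p = 4.14e-05). Each of these rises passed in all 18 fits that left out 1 library.

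The levels of ZC3H12A ran, by treatment mean, from B. subtilis with poly I:C (351 ± 54.3 CPM, SD, n = 3) over B. subtilis (247 ± 15.97), E. faecium with poly I:C (230 ± 17.1), poly I:C (199 ± 10.98) and E. faecium (76.1 ± 43.5) to control (27.5 ± 5.44). In this order the ranges of B. subtilis and of E. faecium with poly I:C overlapped, as did those of E. faecium and control, and the other neighbours did not. All 3 libraries with B. subtilis and poly I:C lay above all 3 with poly I:C alone, but the difference of 0.82 log2 units (SE 0.33) did not pass (adjusted p = 0.447).

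ZC3H12A rose less with both agents than the sum of both single changes. The change with B. subtilis was 3.17 log2 units in the absence of poly I:C and 0.82 in its presence, and the interaction, the second minus the first, was -2.35 (SE 0.47). It was negative in all 3 library sets, between -2.67 and -1.95, but did not pass in the fit without a block (adjusted p = 0.0968). With the library sets as a block, where p-values can be too small, it passed at -2.35 (adjusted p = 0.0111), with 3.83% of all genes. Leaving out 1 library at a time gave values from -2.45 to -2.19. It passed in 3 of the 18 fits, without E. faecium library 1 (adjusted p = 0.0482) or 2 (adjusted p = 0.00335) or B. subtilis with poly I:C library 2 (adjusted p = 0.032), and the highest adjusted p was 0.347.

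ZC3H12C (100511889, chromosome 9, 38133440 to 38209365), a regnase of the same nuclease fold, followed with smaller steps. It lay at 52.7, 49.8 and 47.9 CPM in control, at 200, 292 and 471 CPM with poly I:C, and at 159.6, 160.2 and 160.1 CPM with B. subtilis. The B. subtilis libraries were nearly level (160 ± 0.332 CPM) and lay between control and poly I:C without overlap. The rise was 2.68 log2 units with poly I:C (SE 0.43, adjusted p = 0.000433) and 1.67 with B. subtilis (SE 0.41, adjusted p = 0.0303). The call with B. subtilis was lost in each of the 6 fits that left out a control or B. subtilis library (adjusted p up to 0.131) and with the pig number as a block (adjusted p = 0.0508), and it held with the library sets as a block (adjusted p = 0.00333). In every set the change lay between 1.601 and 1.74. With B. subtilis and poly I:C the libraries lay at 236, 364 and 287 CPM, and with E. faecium and poly I:C at 299, 437 and 334 CPM. The rises against control were 2.56 (adjusted p = 0.000351) and 2.83 log2 units (adjusted p = 0.000293). Both ranges overlapped that of poly I:C alone, and adding either bacterium to poly I:C gave -0.12 and 0.15 log2 units, neither past the threshold. By treatment mean ZC3H12C ran from E. faecium with poly I:C (357 ± 71.9 CPM, SD, n = 3) over poly I:C (321 ± 138), B. subtilis with poly I:C (295 ± 64.6), B. subtilis alone (160 ± 0.332) and E. faecium (128 ± 95.0) to control (50.1 ± 2.43). The neighbours B. subtilis with and without poly I:C did not overlap, nor did E. faecium and control, and the others did.

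The regnases did not keep a fixed proportion within a library. The ratio of ZC3H12C counts to ZC3H12A counts, which does not depend on the scaling of the library, was 1.64 to 2.25 in control and 0.604 to 0.681 with B. subtilis. With poly I:C it was 1.05 to 2.42, which overlapped control. Adding poly I:C to B. subtilis gave 0.616 to 1.26. Both B. subtilis treatments thus lay below control in every library.

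The ZFP36 family had members on both sides. ZFP36L2 (100513591, chromosome 3, 97200395 to 97203094), an AU-rich element binder known from mouse lymphocyte and blood cell development, was at its highest without treatment, at 111, 89.6 and 117 CPM in control. With B. subtilis it lay at 21.4, 16.4 and 23.2 CPM, below every control and every poly I:C library. The log2 change was -2.38 (SE 0.56, adjusted p = 0.0253). The call held with the library sets as a block (adjusted p = 0.00631) but was lost in 5 of 18 fits without 1 library, each of which left out a control or B. subtilis library (adjusted p up to 0.133). With B. subtilis and poly I:C the libraries lay at 5.80, 35.0 and 12.1 CPM, and the log2 change was -2.58 (SE 0.57, adjusted p = 0.00278). Without library 2 it was -3.56, and it passed in all 18 fits without 1 library. By treatment mean ZFP36L2 ran from control (106 ± 14.6 CPM, SD, n = 3) over E. faecium (67.8 ± 31.3), E. faecium with poly I:C (67.5 ± 23.5), poly I:C (48.0 ± 30.5) and B. subtilis (20.3 ± 3.53) to B. subtilis with poly I:C (17.6 ± 15.4). Of the neighbours in this order, poly I:C and B. subtilis alone did not overlap.

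In the poly I:C treatments without B. subtilis, ZFP36L2 lay below control but did not pass. With poly I:C it lay at 27.4, 33.7 and 83.1 CPM, below control in every library, and the change of -1.14 log2 units (SE 0.54) did not pass (adjusted p = 0.149). Without poly I:C library 3 it was -1.79 (adjusted p = 0.0498). With E. faecium and poly I:C it lay at 40.8, 77.1 and 84.8 CPM, again below control in every library, at -0.65 log2 units (adjusted p = 0.428). Against poly I:C alone, B. subtilis with poly I:C gave -1.43 log2 units (SE 0.55, adjusted p = 0.447). Without library 2 of the combined treatment this was -2.42 (adjusted p = 0.0115), in a fit that called 15.1% of all genes as against 0% with it. Within sets A, B and C the difference was -2.22, 0.06 and -2.77 log2 units, so that set B alone was near 0.

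ZFP36L1 (100624279, chromosome 7, 92490069 to 92495864), the third paralogue, was higher where poly I:C was present. It lay at 79.0, 152 and 132 CPM in control, at 166, 215 and 321 CPM with poly I:C, at 169, 223 and 236 CPM with B. subtilis plus poly I:C, and at 212, 313 and 261 CPM with E. faecium and poly I:C. All 9 libraries with poly I:C lay above all 9 without it. Against control, E. faecium with poly I:C passed, with a rise of 1.12 log2 units (SE 0.34, adjusted p = 0.0257). Poly I:C alone at 0.95 (SE 0.34, adjusted p = 0.0534) and B. subtilis with poly I:C at 0.79 (SE 0.34, adjusted p = 0.0777) did not. With the pig number as a block the value for poly I:C was 0.98 (adjusted p = 0.0482), and with the library sets as a block poly I:C gave an adjusted p of 0.00283 and B. subtilis with poly I:C of 0.00557. The call with E. faecium and poly I:C was lost without control library 1 (adjusted p = 0.114) or 3 (0.0585), or without its own library 2 (0.0921) or 3 (0.0589). B. subtilis alone gave 103, 95.6 and 67.8 CPM, at -0.45 log2 units (adjusted p = 0.582), and lay below the control library of its set in all 3 sets. The treatment means were 262 ± 50.3 CPM (SD, n = 3) with E. faecium and poly I:C, 234 ± 78.9 with poly I:C, 209 ± 35.7 with both B. subtilis and poly I:C, 121 ± 37.6 in control, 120 ± 48.9 with E. faecium and 88.7 ± 18.4 with B. subtilis. In that order the third and the fourth did not overlap, and the other neighbours did.

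ZFP36 itself (100316849, chromosome 6, 48063732 to 48066235), which encodes tristetraprolin, the best known destabiliser of TNF mRNA, had overlapping ranges in control and in each of the other 5 treatments. It lay at 82.2, 52.8 and 80.7 CPM in control, 95.0, 74.1 and 99.9 CPM with poly I:C, and 67.2, 64.3 and 68.6 CPM with B. subtilis. It lay at 49.9, 83.8 and 66.1 CPM where B. subtilis was joined with poly I:C. The changes against control ran from -0.11 log2 units, with B. subtilis alone or with poly I:C, to 0.72 with E. faecium and poly I:C (SE 0.33, adjusted p = 0.127). Among the 18 fits without 1 library, the last value passed without library 1 of E. faecium with poly I:C (0.98, adjusted p = 0.0429), where 145 and 139 CPM remained against 71.5 CPM in the library left out. Library sets took 21.1% of the variance of its log2 level and treatment 40.4%. The treatment means ran from 119 ± 40.9 CPM (SD, n = 3) with E. faecium and poly I:C to 66.6 ± 16.96 in B. subtilis plus poly I:C, and each overlapped the next. Of the sets, B lay lowest, with a mean deviation from the treatment means of -0.29 log2 units.

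ZC3H12A, which rose, and ZFP36L2, which fell with B. subtilis, were also set against each other within libraries. Counts of ZC3H12A divided by counts of ZFP36L2 in the same library gave 0.181 to 0.338 in control, 2.35 to 6.94 with poly I:C, 10.5 to 16.2 with B. subtilis and 8.24 to 66.0 with B. subtilis and poly I:C. The ratio was 2.79 to 5.54 in E. faecium plus poly I:C. None of these treatments overlapped control, which follows from the levels given above. In each of them every library lay above control for ZC3H12A and below control for ZFP36L2. The pair was chosen for these directions, so the ratio adds no separate support. The ratio of ZFP36L1 to ZFP36L2 counts also lay above the control range of 0.712 to 1.69 in these treatments, at 3.86 to 6.40 with poly I:C and 6.38 to 29.1 with B. subtilis and poly I:C. Where poly I:C was present, this too follows from the levels of both genes.

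**Figure D2:**
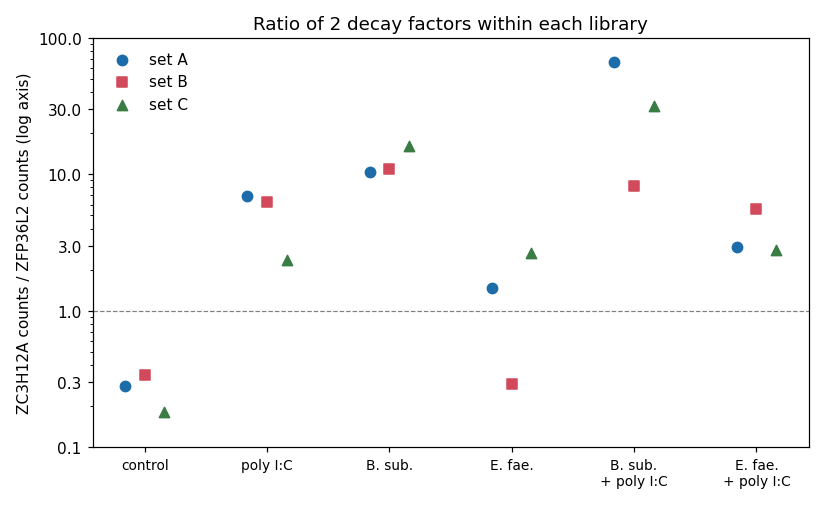
Ratio of ZC3H12A to ZFP36L2 read counts within each library (vertical, log axis) for the 6 treatments (horizontal; abbreviations as B. sub. for B. subtilis and E. fae. for E. faecium). Symbols mark the library sets and the dashed line equal counts; the ratio is at most 0.338 in control and at least 2.35 in the 4 treatments with poly I:C or B. subtilis, while E. faecium alone spans 0.292 to 2.63.

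Of the roquins, 1 passed. RC3H2 (100152442, chromosome 1, 263769403 to 263822101), a stem-loop binder that acts beside RC3H1 in mouse T cells, lay at 24.6, 23.5 and 28.4 CPM in control and at 44.8, 52.4 and 76.6 CPM with poly I:C. With poly I:C it lay at 42.6, 65.1 and 48.1 CPM where B. subtilis was added and at 54.3, 67.4 and 58.5 CPM where E. faecium was added, all above every control library. Its rise was 1.18 log2 units with poly I:C (SE 0.26, adjusted p = 0.00449), 1.03 with B. subtilis and poly I:C (SE 0.26, adjusted p = 0.0071) and 1.24 with E. faecium and poly I:C (SE 0.26, adjusted p = 0.00332). These calls held in all 18 fits without 1 library. With B. subtilis alone the libraries lay at 44.4, 43.1 and 36.2 CPM, above every control, at 0.70 log2 units (SE 0.26). That value did not pass without a block (adjusted p = 0.168) and passed with the library sets as a block (adjusted p = 0.0258). The treatment means ran from 60.05 ± 6.68 CPM (SD, n = 3) with E. faecium and poly I:C over 57.9 ± 16.6 with poly I:C, 52.0 ± 11.7 with both B. subtilis and poly I:C, 41.3 ± 4.38 with B. subtilis and 34.0 ± 13.8 with E. faecium to 25.5 ± 2.55 in control, and each overlapped the next.

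RC3H1 (100519792, chromosome 9, 116204807 to 116292455), whose protein represses ICOS mRNA in mouse T cells, differed more by library set than the others. By treatment mean RC3H1 was highest with E. faecium and poly I:C (81.8 ± 18.2 CPM, SD, n = 3) and lowest in control (43.7 ± 7.36 CPM), and each treatment overlapped the next in that order. Treatment took 27.4% of the variance of its log2 level and the sets 24.9%. It lay at 52.2, 39.2 and 39.7 CPM in control and at 32.2, 79.7 and 73.6 CPM with poly I:C, where set A was lower than its control and sets B and C were higher. With B. subtilis and poly I:C the spread was widest, at 23.7, 118 and 35.3 CPM, with changes against the control of the same set of -1.14 in set A, 1.59 in set B and -0.17 in set C. The treatment mean was 0.44 log2 units above control (SE 0.48, adjusted p = 0.506), and it was -0.57 without library 2. Against poly I:C alone it was -0.06, and -1.07 without that library (adjusted p = 0.071). With B. subtilis alone RC3H1 lay at 84.5, 66.5 and 56.6 CPM and with E. faecium and poly I:C at 102, 67.9 and 75.1 CPM, above control in every library of both treatments, at 0.66 (adjusted p = 0.562) and 0.90 log2 units (adjusted p = 0.199).

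**Figure D3:**
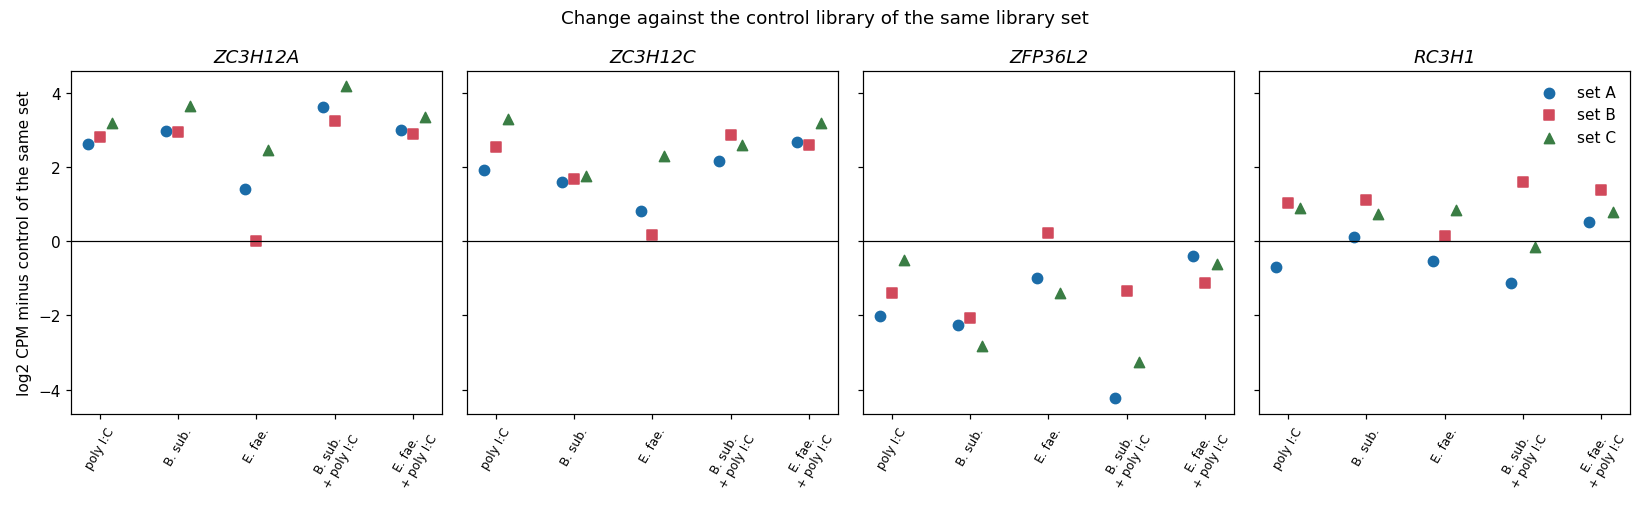
Difference in log2 CPM between each treated library and the control library of the same set (vertical) for 4 of the genes and 5 treatments (horizontal; B. sub. is B. subtilis, E. fae. is E. faecium). Each point is 1 library; ZC3H12C with B. subtilis lies between 1.601 and 1.74 in the 3 sets, whereas RC3H1 with B. subtilis and poly I:C runs from -1.14 to 1.59.

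Counted over the family, poly I:C against control raised 3 of 7 members (ZC3H12A, ZC3H12C and RC3H2), where 22.5% of all genes tested passed, 12.9% up and 9.55% down. The median change of the members was 0.95 log2 units and that of all genes -0.01. B. subtilis raised 2 members (ZC3H12A and ZC3H12C) and lowered 1 (ZFP36L2), where 4.44% of all genes passed, 2.75% up and 1.69% down. B. subtilis with poly I:C raised 3 and lowered 1, where 35.6% of all genes passed, 19% up and 16.6% down. E. faecium with poly I:C raised 4, where 23.1% passed, 13.3% up and 9.9% down. The members were chosen with results of these libraries known, and these comparisons share their control libraries. With the library sets as a block, 4 members passed for poly I:C, 4 for B. subtilis, 5 for B. subtilis with poly I:C and 4 for E. faecium with poly I:C, in fits that called 41.7%, 18.4%, 54.6% and 42.8% of all genes. With DESeq2 the same comparisons called 4, 3, 5 and 4 members and 27.6%, 8.47%, 40.1% and 28.7% of all genes. Some marker sums of other cells also lay higher with B. subtilis. The summed level of 5 neutrophil and mast cell markers, made up mostly of S100A12, was 698 to 1319 CPM in control and 2225 to 3121 CPM with B. subtilis. It was 606 to 2191 CPM with poly I:C, 931 to 1336 CPM with E. faecium, 1467 to 3292 CPM in B. subtilis plus poly I:C and 631 to 1809 CPM in E. faecium plus poly I:C. That of 6 monocyte and dendritic cell markers, mostly CD14, was 178 to 480 CPM in control, 1379 to 1601 CPM with B. subtilis, 1108 to 2315 CPM in B. subtilis plus poly I:C, 499.5 to 1442 CPM with poly I:C, 453 to 596 CPM with E. faecium and 619 to 1354 CPM in E. faecium plus poly I:C. The sum of 6 epithelial markers, mostly EPCAM, was 29.0 to 153 CPM in control and 132 to 391 CPM with B. subtilis. That of 6 T, NK and B cell markers, mostly NKG7, was 319 to 437 CPM in control and 231 to 340 CPM with B. subtilis. In the same order, that of 6 endothelial and fibroblast markers was 2.96 to 8.998 and 1.90 to 4.59 CPM. That of the macrophage markers was 2016 to 2888 and 1946 to 2307 CPM. MPO and CPA3 were at 0 in every library and CLEC9A, of dendritic cells, at 0 in 14 of 18. The rest of the monocyte and dendritic cell list besides CD14 was detected in every library. BATF3 lay at 3.33 to 170 CPM, XCR1 at 3.27 to 22.4, CCR2 at 0.604 to 12.1 and FLT3 at 0.275 to 2.82 CPM. The part of cells with S100A12, CD14 or EPCAM in the member changes was not tested.

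**Figure D4:**
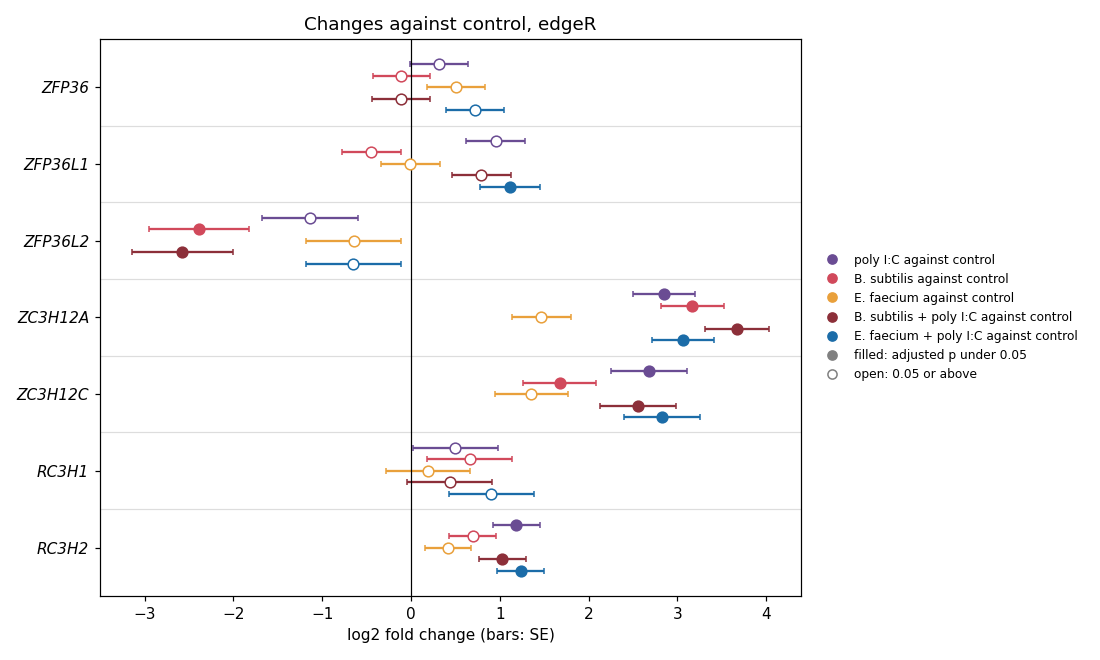
Log2 fold change of each gene (rows) against control in the 5 treatments (colours), with bars for the standard error from edgeR. Filled points passed an adjusted p of 0.05 and open points did not; ZC3H12A is highest with B. subtilis and poly I:C at 3.68, and ZFP36L2 lowest there at -2.58.

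E. faecium alone called no member and 0% of all genes with edgeR. At an unadjusted p under 0.05 there were 278 of 13592 genes, a share below 0.05, and 2 of them were members. DESeq2 called 38 genes (0.28%), among them the members ZC3H12A (adjusted p = 0.00194) and ZC3H12C (adjusted p = 0.0333). ZC3H12A lay at 117, 30.2 and 81.5 CPM in E. faecium libraries 1 to 3, so that libraries 1 and 3 were above every control and library 2 was among the controls. Its change was 1.47 log2 units (SE 0.33, adjusted p = 0.69). Without library 2 it was 1.85 (adjusted p = 0.00182), in a fit that called 0.261% of all genes. ZC3H12C lay at 236, 56.2 and 92.6 CPM, above every control although library 2 was close to them, at 1.354 log2 units (SE 0.41, adjusted p = 1). ZC3H12C did not pass without library 2 (1.71, adjusted p = 0.0768), nor with the library sets as a block (1.21, adjusted p = 0.305). Of the edgeR fits, both changes together, a fit chosen after the data had been seen, gave a call at 1.59 (adjusted p = 0.0104). That fit gave ZC3H12A 1.84 (adjusted p = 0.000417) and called 1.81% of all genes, whereas with the block alone ZC3H12A did not pass (1.40, adjusted p = 0.215). ZFP36L2 lay at 44.4, 103 and 55.6 CPM, where again library 2 alone was within the control range. Its log2 change was -0.64, and -1.09 without library 2, neither past the threshold.

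ZFP36 with E. faecium lay at 148, 56.4 and 102 CPM, with libraries 1 and 3 above and library 2 within the control range, at 0.50 log2 units (SE 0.32, adjusted p = 1) and 0.79 without library 2 (adjusted p = 0.755). ZFP36L1 was at 136, 159 and 65.3 CPM, at -0.01 log2 units and -0.27 without library 2. RC3H1 was at 71.0, 43.2 and 35.7 CPM and RC3H2 at 49.9, 26.8 and 25.4 CPM, and in both genes library 1, of set C, was the highest. For ZFP36L1 the sets were ordered as in control, with A lowest.

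Between the bacteria, B. subtilis against E. faecium called no member, with 0.177% of all genes called (0.0956% up and 0.0809% down). At an unadjusted p under 0.05 there were 1168 genes and 2 members. ZC3H12A was higher with B. subtilis in all 3 sets, by 1.18 to 2.95 log2 units, and its difference of 1.70 (SE 0.33) had an adjusted p of 0.0582. It passed with the library sets as a block (1.75, adjusted p = 0.00445), where 6.82% of all genes passed, and with DESeq2 (1.72, adjusted p = 0.000175), where 2.03% did. Without E. faecium library 1 it was 2.15 (adjusted p = 0.0138). Without E. faecium library 2 it was 1.32 and did not pass (adjusted p = 0.0759), where 0.00726% of all genes passed. With the sets as a block as well it was 1.33 (adjusted p = 0.00614), where 2.1% did. Of the 18 fits that left out 1 library and used no block, 2 passed, and the highest adjusted p was 0.276. ZFP36L2 was lower with B. subtilis in all 3 sets, by 1.74 log2 units at the mean (log2 difference -1.74, SE 0.55, adjusted p = 0.258) and by 1.30 without E. faecium library 2 (log2 difference -1.30, adjusted p = 0.817). For ZFP36L1, RC3H2 and ZC3H12C that library moved the difference from -0.44 to -0.18, from 0.28 to 0.13 and from 0.32 to -0.04, none past the threshold.

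Added to poly I:C, neither bacterium changed a member past the threshold with all 18 libraries. B. subtilis with poly I:C against poly I:C called 0% of all genes with edgeR, with 1423 genes at an unadjusted p under 0.05, and DESeq2 called 28 genes (0.206%) and no member. Its member changes ran from -1.43 (ZFP36L2, SE 0.55) to 0.82 log2 units (ZC3H12A, SE 0.33). Without library 2 of the combined treatment ZFP36L2 passed, as given above, in a fit that called 15.1% of all genes. E. faecium with poly I:C against poly I:C called 0% and 0 genes with DESeq2. At an unadjusted p under 0.05 it had 38 of 13592 genes, a share below 0.05. The member changes with E. faecium ran from 0.05 (RC3H2, SE 0.26) to 0.49 log2 units (ZFP36L2, SE 0.54). The interaction of E. faecium and poly I:C called no member and 0% of all genes, and 0 genes with DESeq2. It had 95 genes at an unadjusted p under 0.05, again a share below 0.05. ZC3H12A gave -1.26 there (adjusted p = 1), with -1.01, 0.10 and -2.31 in sets A, B and C. It did not pass with the sets as a block (-1.20, adjusted p = 1) or without E. faecium library 2 (-1.64, adjusted p = 0.158). With both changes it gave -1.63 (adjusted p = 0.0351), with 0.203% of all genes. The interaction of B. subtilis and poly I:C called 0.0368% of all genes (0.00736% up and 0.0294% down) and no member. It lay below 0 in all 3 sets for ZFP36, ZC3H12A, ZC3H12C, RC3H1 and RC3H2. For ZFP36L1 it was 0.03 to 0.62 over the sets. For ZFP36L2 it was near 0 in sets A and C (0.03 and 0.07) and 2.12 in set B. Without library 2 of the combined treatment the value moved from -0.73 to -1.73 for RC3H1 (adjusted p = 0.0621), from -0.32 to -0.52 for ZFP36 and from 0.95 to -0.04 for ZFP36L2. DESeq2 called ZC3H12A there (-2.33, adjusted p = 0.000798), with 0.846% of all genes.

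The rest of the decay machinery was followed in lists chosen for it, of which 129 of 138 genes were tested. Genes are named where they had the highest or lowest change past the threshold, so a gene named for a treatment can move in others too. List counts are set beside the shares over all genes, of which 12.9% rose and 9.55% fell with poly I:C, 2.75% and 1.69% with B. subtilis, 19% and 16.6% in B. subtilis plus poly I:C, and 13.3% and 9.9% in E. faecium plus poly I:C. Among 10 genes of other regnases, other endonucleases and regulators of both, 6 rose and 2 fell with poly I:C, 1 rose with B. subtilis, 4 rose and 2 fell with B. subtilis plus poly I:C, and 6 rose and 2 fell with E. faecium plus poly I:C. The remaining regnase tested, ZC3H12D, which is best known from lymphocytes, fell with poly I:C by 2.62 log2 units (adjusted p = 0.000407), from 12.5 ± 2.39 to 2.04 ± 0.579 CPM. Its direction was thus opposite to that of ZC3H12A and ZC3H12C in the same libraries. ARID5A, which shields IL6 mRNA from regnase-1 in the mouse, rose by 2.60 with B. subtilis and poly I:C (adjusted p = 2.02e-05), from 51.9 ± 2.80 to 314 ± 123 CPM. MALT1, the protease that cleaves regnase-1 and roquins in mouse T cells, fell there by 2.84 (adjusted p = 0.000432), from 26.3 ± 8.91 to 3.64 ± 0.987 CPM. N4BP1, a relative of the regnases that restrains cytokine output in the mouse, was the gene of this list that rose with B. subtilis, by 0.71 (adjusted p = 0.0428).

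The ZFP36 and roquin proteins recruit deadenylases. Of 20 genes of deadenylation and the poly(A) tail, 6 rose and 1 fell with poly I:C, with a median of 0.27 log2 units. With B. subtilis 1 rose and 1 fell, and 6 rose and 1 fell in each combined treatment. PABPC1, which coats the poly(A) tail, rose by 1.58 with B. subtilis (adjusted p = 0.000619), from 705 ± 60.1 to 2114 ± 208 CPM. It rose by 2.21 with B. subtilis and poly I:C (adjusted p = 8.28e-06). PABPC1 averaged 2626 ± 293 CPM in poly I:C alone and 2821 ± 128 CPM in E. faecium plus poly I:C. Both means lay above that of B. subtilis alone, whereas E. faecium alone gave 843 ± 144 CPM. The deadenylase gene PARN fell in each of the 4 treatments that held poly I:C or B. subtilis, and with poly I:C it went from 16.9 ± 4.65 to 6.42 ± 0.337 CPM (-1.39, adjusted p = 0.00135). TOB1, an adaptor of CCR4-NOT, rose by 2.08 with poly I:C (adjusted p = 0.0484), and BTG2, another, by 2.20 with E. faecium and poly I:C (adjusted p = 0.00174).

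Of 19 decapping genes, 4 rose with poly I:C, 0 with B. subtilis alone, 8 with B. subtilis plus poly I:C and 5 with E. faecium and poly I:C, and none fell. Over all genes 12.9%, 2.75%, 19% and 13.3% rose in the same order, and 9.55%, 1.69%, 16.6% and 9.9% fell. The decapping activator DCP1B rose by 2.64 with poly I:C (adjusted p = 0.00361), from 2.94 ± 0.255 to 18.4 ± 10.6 CPM, and its relative DCP1A by 0.64 (adjusted p = 0.0347). Of 17 exosome genes, 3 fell and none rose with poly I:C, with EXOSC5, a core subunit, at -1.36 (adjusted p = 0.00192). With B. subtilis and poly I:C 3 rose and 3 fell, from EXOSC3 at 1.06 (adjusted p = 0.00991) to the nuclease DIS3L at -2.55 (adjusted p = 0.0137), and with E. faecium plus poly I:C 3 fell. None of the 17 passed with B. subtilis alone. Among 13 other AU-rich element and mRNA binding proteins, 2 rose with poly I:C, which were IGF2BP3, which stabilises its targets, at 2.13 (adjusted p = 0.000439) and TIA1, a translational silencer, at 1.30 (adjusted p = 0.00402). None of the 13 passed with B. subtilis, and 3 and 2 rose in the combined treatments with B. subtilis and E. faecium. The upward counts of these 13 genes are close to the shares over all genes, and none of the 13 fell.

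Of 19 kinases and adaptors that act on these proteins, 3 rose and 3 fell with poly I:C and 3 rose with B. subtilis. In B. subtilis plus poly I:C 5 rose and 5 fell, and in E. faecium plus poly I:C 3 rose and 3 fell. In the poly I:C treatments these counts are near the shares over all genes in both directions. MAPKAPK2, the kinase that phosphorylates and inactivates ZFP36 in mouse macrophages, rose with poly I:C by 1.53 (adjusted p = 0.0043) and with B. subtilis by 2.27 (adjusted p = 0.00219). Its level went from 42.3 ± 5.58 CPM in control to 122 ± 19.4 and 204 ± 41.2 CPM. MAP2K3, upstream in the same cascade, rose by 1.006 with B. subtilis (adjusted p = 0.0183). YWHAG, a gene of the phosphoprotein-binding adaptors to which ZFP36 can bind, fell by 1.19 with poly I:C (adjusted p = 0.0274). With E. faecium alone no gene of any of these lists passed with edgeR.

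**Figure D5:**
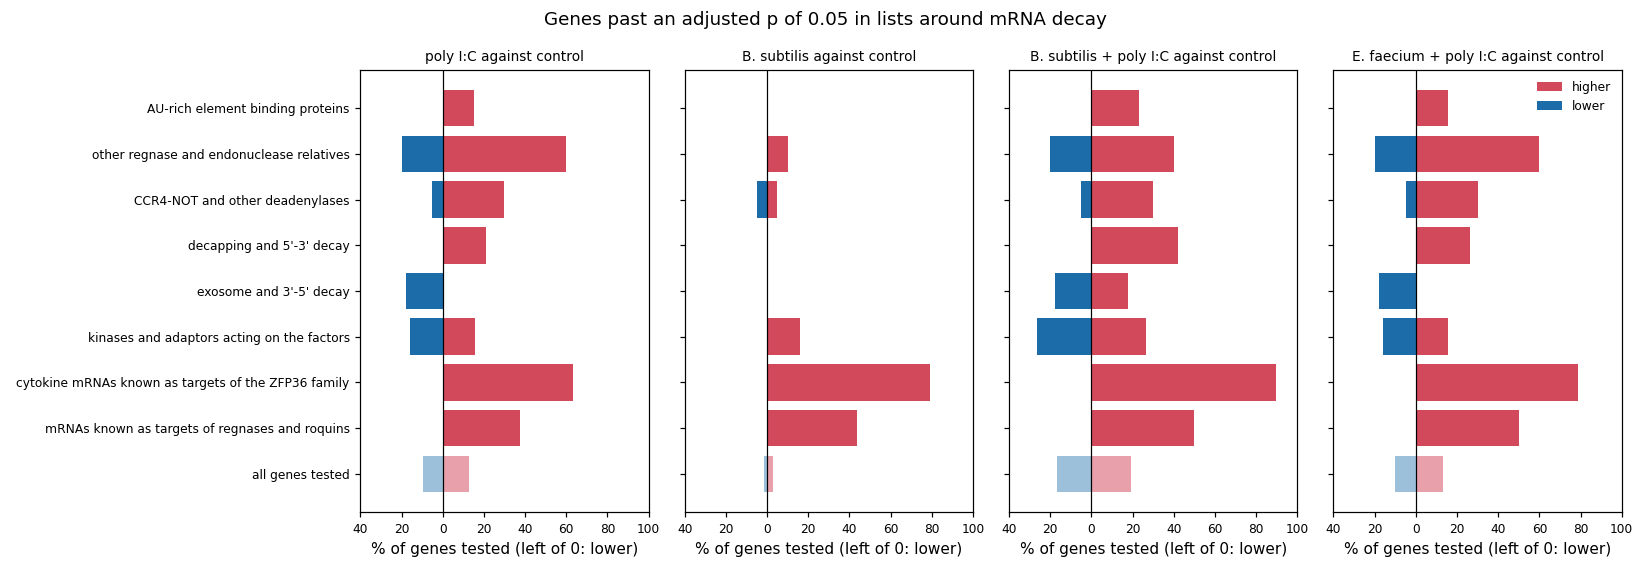
Share of the genes of each list that passed an adjusted p of 0.05 upward (right, red) or downward (left, blue), in percent of genes tested, for 4 treatments against control. The pale bars at the bottom give the same over all 13592 genes, 12.9% up and 9.55% down with poly I:C; both lists of target mRNAs hold no gene that fell.

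The mRNAs known as targets of these proteins were counted in the same way. Of 19 cytokine and related mRNAs listed as ZFP36 family targets, 12 rose with poly I:C, 15 with B. subtilis alone, 17 with B. subtilis plus poly I:C and 15 with E. faecium and poly I:C, and none fell. The medians were 3.78, 4.04, 4.51 and 3.94 log2 units. With E. faecium alone 0 passed with edgeR, although the median was 2.04 log2 units, against -0.001 over all genes. Of 16 listed as regnase or roquin targets, 1 of which is ZC3H12A itself, 6, 7, 8 and 8 rose and none fell. Here too 0 passed with E. faecium alone, at a median of 0.95 log2 units. The target lists share genes, among them TNF, IL6 and IL1B, so their counts are not independent. TNF lay at 18.8 to 23.3 CPM in control, 637 to 1698 CPM with B. subtilis and 3157 to 6393 CPM with B. subtilis and poly I:C. It lay at 959 to 1706 CPM with poly I:C and 1873 to 3109 CPM with E. faecium and poly I:C. In E. faecium alone TNF was at 26.0, 1972 and 356 CPM in sets B, C and A. CSF2 differed by set: with B. subtilis it lay at 117, 44.2 and 6.92 CPM in sets B, C and A, and its change did not pass there (adjusted p = 0.0646). IL6 had 0, 6 and 1 counts in the control libraries of sets A, B and C, 15, 455 and 62 with poly I:C and 92, 773 and 340 in B. subtilis plus poly I:C. Set B was thus the highest for IL6 in each of these treatments. IL12B had 0 counts in all control libraries and, with E. faecium and poly I:C, 8, 1220 and 288 counts in sets B, C and A. In the same order of sets it had 2, 926 and 49 counts with E. faecium alone and 11, 98 and 3 with poly I:C alone.

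Genes with the pattern most like a member were sought by the root mean square difference of log2 CPM over the 18 libraries, each gene centred on its own mean. For ZC3H12A they were SLC39A14 at 0.308 log2 units, TMEM120B at 0.326 and NFKB2 at 0.351, where the median gene was at 1.44. For ZC3H12C they were ABL2 (0.284), RALGDS (0.285) and CASP10 (0.295), and for ZFP36L2 NR3C2 (0.516), MPEG1 (0.518) and ANKRD63 (0.554). Of these, ANKRD63 was near the floor, at 0 to 2.90 CPM, and NR3C2 lay at 2.49 to 16.3 CPM. ZFP36L1 was most like TMEM268 (0.273), IRF5 (0.276) and CARD6 (0.280), and ZFP36 like CNOT6L (0.274), TFIP11 (0.275) and HDAC4 (0.276). RC3H1 had the nearest neighbour of all members, KMT2E at 0.158, followed by NF1 (0.184) and MYCBP2 (0.208). RC3H2 was most like SAMD8 (0.166), TRIM56 (0.173) and ABR (0.174). These distances describe the libraries, which share treatments and sets, and carry no test.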

How the data were processed

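The authors deposited 1 table of raw read counts per gene and library, with whole numbers and no normalization. The submitters' processing notes name Sscrofa11.1 as build and DESeq2 as tool. The aligner, the counting tool and its strand setting are not given in sources used here, so reads of overlapping genes on opposite strands may be mixed. Coordinates came from the RefSeq table of Sscrofa11.1, matched by gene ID. There were 0 columns of other series, and 351 rows without a symbol stayed in totals and tests.

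Counts were tested in R 4.3.3 with edgeR 4.0.16: TMM, filterByExpr by treatment (minimum count 10), 1 mean per treatment over all 18 libraries, no block, two-sided, Benjamini-Hochberg over 13592 genes, threshold 0.05. The SE is that implied by the F value. Log2 CPM used a prior count of 2. Scripts were tested on simulated data. P-values measure the spread between libraries. The numbers of the labels name the pig, but same-numbered libraries of different treatments deviated together (correlation over 0.1) in 17 of 45 pairs, and libraries of 1 set, which were chosen to deviate together, in 45 of 45. Alternatives were DESeq2 1.42.0, its size factors, no filter, both blocks and each library left out. The members and lists were chosen with earlier results of these data known. Beyond the members, the text names the gene with the highest and the gene with the lowest change among those of a list past the threshold in a comparison with control, CSF2, TNF, IL6 and IL12B as textbook targets and, per member, the 3 nearest genes; CES1 and the cell markers named were chosen after their values were seen. No sequences are printed, since none was used here. The values of 1 gene of the lists are not reported here.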

Additional observations from a re-analysis of the deposited data

How the results depend on the processing

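Under the 4 scaling, filter and label-block alternatives and DESeq2, no member that passed lost its call, except ZC3H12C with B. subtilis under the pig-number block (adjusted p = 0.0508), and 1 sign changed, that of ZFP36L1 with E. faecium under that block (0.014 log2 units). DESeq2's size factors kept 70 of 70 member values on their side of the threshold and moved the level of ZC3H12C with B. subtilis from 159.9 to 160.8 CPM. DESeq2 gave no adjusted p for 5 members with E. faecium. Counts of all genes past the threshold moved more. With the library sets as a block they were 5668 for poly I:C, 2504 for B. subtilis, 7416 for B. subtilis with poly I:C and 5811 for E. faecium with poly I:C against control, 927 for B. subtilis against E. faecium and 521 for the B. subtilis interaction, against 3055, 604, 4834, 3146, 24 and 5 without. With DESeq2 they were 1151 for B. subtilis, 38 for E. faecium, 28 for B. subtilis with poly I:C against poly I:C, 276 between the bacteria and 115 for the B. subtilis interaction, which gave 1 with DESeq2's size factors in edgeR and 0 with the pig number as a replicate block. With the sets as a block and without E. faecium library 2, chosen after seeing the data, they were 250 for E. faecium against control, 289 between the bacteria and 28 for the E. faecium interaction. The cause of these moves was not tested.

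Leaving out 1 library at a time gave 2014 to 3725 genes for poly I:C, 156 to 837 for B. subtilis, 0 to 36 for E. faecium, 3507 to 6191 for B. subtilis with poly I:C and 2142 to 3805 for E. faecium with poly I:C against control, 0 to 2087 for B. subtilis with poly I:C against poly I:C, 1 to 85 between the bacteria and 0 to 514 for the B. subtilis interaction. The highest of these for poly I:C, for B. subtilis, for both combined treatments and for the interaction came without library 2 of B. subtilis with poly I:C. Log2 values of members that did not pass and changed sign ran from -0.29 to 0.00095 (ZFP36 with B. subtilis), -0.27 to 0.29 (ZFP36L1 with E. faecium), -0.15 to 0.39 (RC3H1 with E. faecium), -0.31 to 0.081 (ZFP36 with both B. subtilis and poly I:C) and -0.57 to 0.84 (RC3H1, same treatment). For B. subtilis with poly I:C against poly I:C they were -0.36 to 0.14 (ZFP36L1), -0.37 to 0.27 (ZC3H12C), -1.07 to 0.32 (RC3H1) and -0.35 to 0.098 (RC3H2). For E. faecium with poly I:C against poly I:C they were -0.029 to 0.46 (ZFP36L1), -0.095 to 0.54 (ZC3H12C) and -0.10 to 0.31 (RC3H2), and for B. subtilis against E. faecium -0.038 to 1.11 (ZC3H12C). In the interactions they were -0.035 to 1.6 (ZFP36L2, B. subtilis), and with E. faecium -0.39 to 0.27 (ZFP36), -0.12 to 0.47 (ZFP36L1), -0.098 to 0.55 (RC3H1) and -0.54 to 0.019 (RC3H2).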
